A study of Mus musculus and Homo sapiens with 27 samples.

Results

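Genes of RNA splicing and RNA binding were followed in OCI-Ly7, a human line of diffuse large B-cell lymphoma of the germinal centre B-cell type. They were all genes of the human lymphochip, a spotted cDNA array of lymphocyte genes, whose single symbol starts with SRSF, SF3, HNRNP, SNRP, PRPF, DDX or DHX. This rule gave 38 of the 4604 genes with a single symbol, on 56 of 10169 features. The IRF4 cells carried the Vxy vector with human IRF4, and their RNA was labelled with Cy5. The control cells carried the empty Vxypuro vector, and their RNA was labelled with Cy3 on the same array. There was 1 array at day 2, 2 at day 3 (repeats 1 and 2) and 1 at day 5. The design text calls the control cells non-transduced, while the sample labels give an empty vector, which was followed. Both arms are the same adult lymphoma line, and the labels do not say whether the repeats came from separate cultures, so the p-values measure the spread between 4 arrays. The series also holds 23 mouse arrays of Irf4-mutant B cells, which were not used here.

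Introns are removed from precursor RNA by the spliceosome, built from small nuclear ribonucleoproteins (snRNPs) whose proteins include the SNRP, SF3 and PRPF families. SR proteins (SRSF) bind exons and mostly favour their inclusion, while the heterogeneous nuclear ribonucleoproteins (HNRNP) coat nuclear RNA and often repress exons. DDX and DHX proteins are RNA helicases, of which some drive steps of the spliceosome and others act in ribosome assembly, translation or RNA decay. In B cells, regulated RNA processing is best known from the switch of immunoglobulin heavy chain from its membrane to its secreted form during plasma cell differentiation, a process in which IRF4 is a central transcription factor.

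Each value below is a log2 ratio of IRF4 vector over empty vector, centred on the median of its array and averaged over the features of a gene. A value of 1 is a doubling if the logarithm has base 2, which fits the spread of the values but is not stated. That Cy5 stands over Cy3 is likewise read from the dye labels alone. Ratios show differences between the cells, not levels, and in bulk RNA fewer cells with a transcript and less transcript per cell cannot be told apart.

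The 4 features of IRF4 did not settle the direction. As a gene, IRF4 measured -0.29 at day 2, 0.67 at day 3 repeat 1, -0.17 at day 3 repeat 2 and -0.32 at day 5. Only IRF4 feature 3 was above 0 on all 4 arrays, with a mean of 0.69, and the features' means went down to -0.45. The direction is thus likely from the dyes but not checked by IRF4, and if it ran the other way every sign below would turn. Of 8 measured plasma cell markers, 6 lay above 0 on all 4 arrays, against 17.0% of all genes. The means of MZB1 (-0.23, above 0 on 1 array) and SDC1 (-0.08, above 0 on 2) were below 0. At an unadjusted p under 0.05 (limma) 6 were higher and 0 lower, against 7.91% and 16.0% of all genes. The plasma cell receptor gene TNFRSF17 was at 3.36 ± 0.53 (SD, n = 4; limma adjusted p = 0.0455), and the other 7 did not pass the test; the TNFRSF17 call was lost without any 1 of the arrays. The list's median on each array lay between 1.49 and 1.94.

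Of the 8 T and NK cell markers measured, 0 passed the test (limma) and 0 had an unadjusted p under 0.05, and their median on each array lay between -2.15 and 0.10. For the 6 myeloid markers 0 passed and 1 had an unadjusted p under 0.05, lower, with array medians between -0.90 and 0.29. None passed among the 6 B-cell markers (array medians -0.95 to -0.39), of which 1 was higher and 3 were lower at that level, or the 4 germinal centre markers (-0.61 to 0.15), with 0. Of all genes 7.91% were higher and 16.0% lower at that level, and counts in lists this short are given as a description only. The part of these lists in the results below was not tested.

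The array of day 3 repeat 1 stood apart from the others in the size of its differences. Its median absolute difference from each other array was 0.94 to 1.29 log2 units over the 38 genes, against 0.50 to 0.65 among the other 3 arrays. Over all genes it was 0.73 to 1.02, against 0.42 to 0.72. Its correlation with the other arrays over all 4604 genes was 0.32 to 0.43, against 0.39 to 0.49 among the other 3. The correlations over the 38 genes did not set it apart, at 0.25 to 0.54, against 0.31 to 0.65 among the other 3, and day 3 repeat 2 had the low ones, at 0.25 to 0.41. On it 12 of the 38 genes lay above 1, against 4 at day 2, 2 at day 3 repeat 2 and 4 at day 5. Over all 4604 genes, the share above 1 was 15.8% on day 3 repeat 1, 6.21% at day 2, 5.21% on day 3 repeat 2 and 13% at day 5. At the low end day 5 held most, with 9 of the 38 genes below -1. Day 3 repeat 1 held 4, day 2 held 5 and day 3 repeat 2 held 2. The shares of all genes below -1 were 29.7%, 12.9%, 19.3% and 14.7% in that order. Day 5 also had the widest spread over all genes, with a scaled median absolute deviation of 1.26, against 0.69 to 0.93 on the others. The 2 arrays of day 3 differed by a median of 0.97 log2 units over the 38 genes and 0.73 over all genes, and 21 of the 38 had the same sign on both. The counts and medians over the 38 genes are therefore also given without day 3 repeat 1, as are the means of several genes that it moved.

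**Figure D1:**
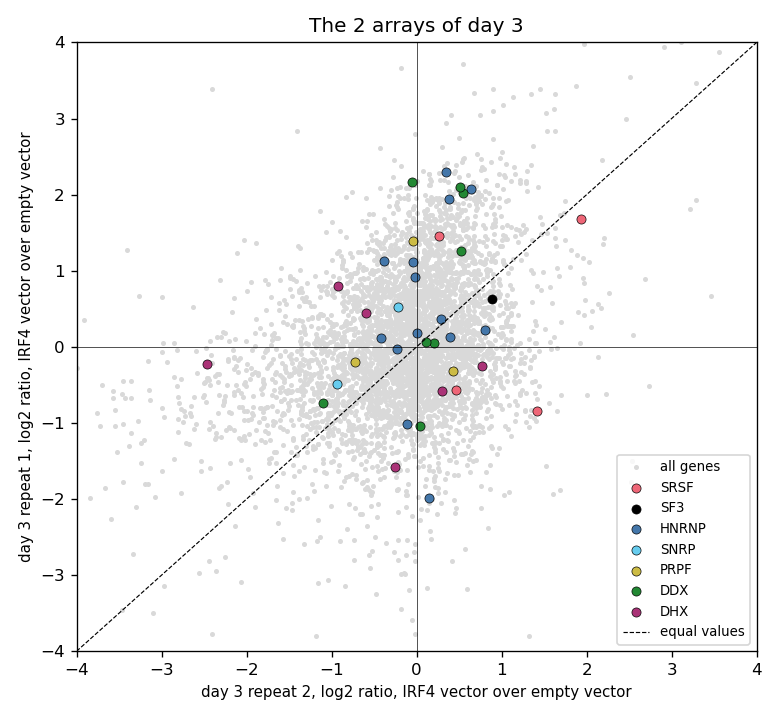
Log2 ratio (IRF4 vector over empty vector) on day 3 repeat 1 (vertical) against day 3 repeat 2 (horizontal), grey for all genes and coloured by class for the 38 splicing and RNA-binding genes; 97 genes lie beyond the axes of 4 log2 units. A cluster of HNRNP and DDX genes sits near 2 on repeat 1 and below 0.7 on repeat 2, while SRSF10 is high on both.

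None of the 38 genes passed the test of IRF4 vector against empty vector (limma, adjusted p under 0.05 over all 4604 genes). In that comparison 5 of 4604 genes passed, which is 0.109% (0.0434% higher, 0.0652% lower), and 0 or 1 gene passed without any 1 of the arrays. At an unadjusted p under 0.05 there were 9 of 38 (5 higher, 4 lower), or 23.7%, and the share of all genes was 23.9%. The median of the 38 was 0.10, with a range from -2.89 for DHX36 to 1.73 for SRSF10, and the median of all genes was -0.14. Of the 38 means 20 were above 0, against 43.3% of all genes. Without day 3 repeat 1 the medians were -0.08 and -0.21. In that fit 0 of the 38 genes and 0% of all genes passed, and 5 of 38 had an unadjusted p under 0.05, against 25.0% of all genes.

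Genes with 1 sign on all 4 arrays numbered 13 of 38, 8 above 0 and 5 below, where 38.0% of all genes had 1 sign, 17.0% above and 21.0% below. The 8 above 0 were SRSF10, SRSF7, SF3B4, HNRNPK, HNRNPH1, DDX1, DDX5 and DDX17, and the 5 below were DHX15, DHX36, SNRPA, HNRNPH3 and HNRNPD. The 95% interval of the mean had a median half-width of 0.86 log2 units, or 1.81-fold. Smaller differences would thus mostly not reach an unadjusted p under 0.05 with 4 arrays. The adjusted threshold asks for more, and SRSF10, at a mean of 1.73, missed it (limma adjusted p = 0.102). For 9 of the 38 genes the whole interval, which is not adjusted for the number of genes, lay between -1 and 1. This is 23.7% of them, against 21.1% of all genes.

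**Figure D2:**
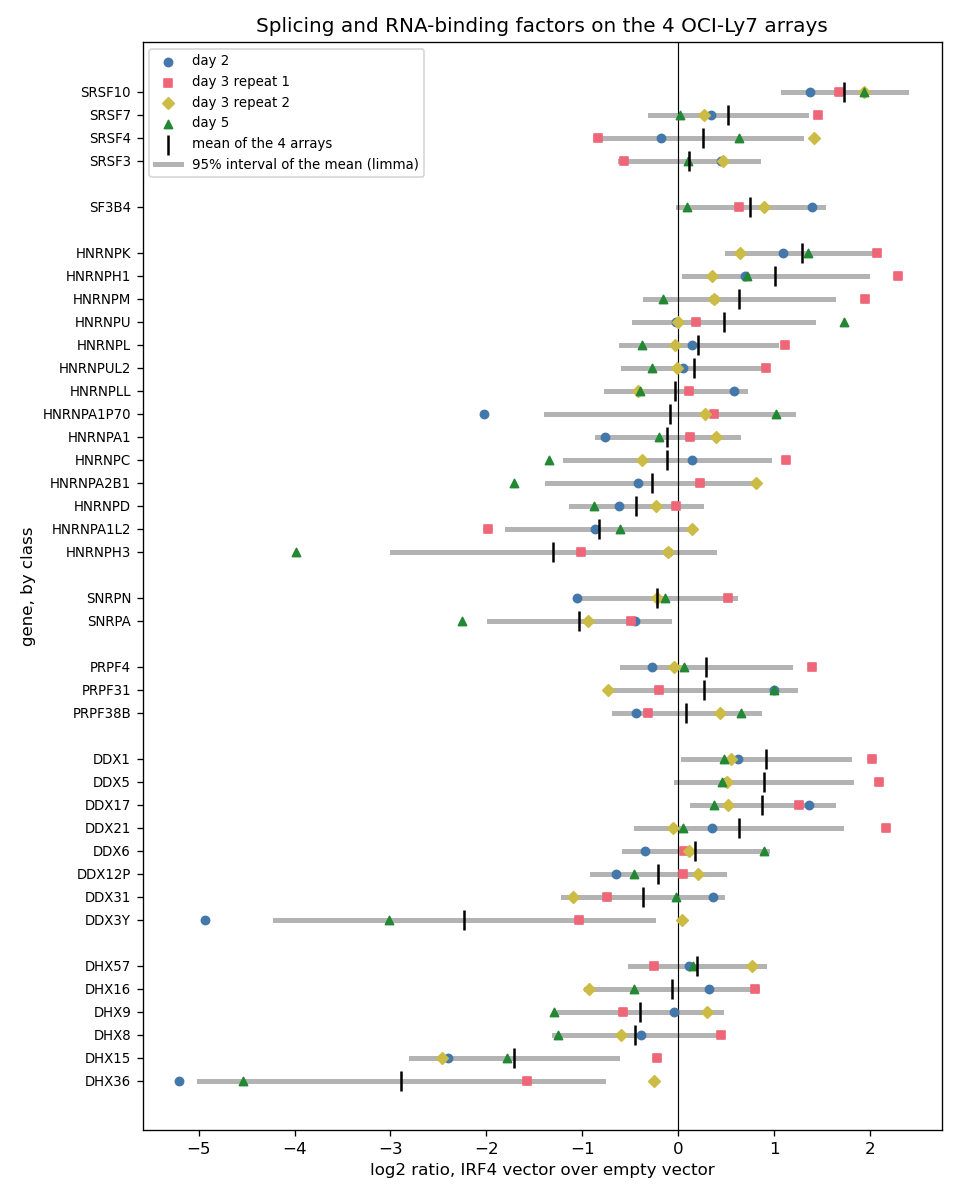
Log2 ratio (IRF4 vector over empty vector, horizontal) of each of the 38 genes on each array, by class, with the mean of the 4 arrays as a black bar and its 95% interval (limma) in grey. SRSF10 lies above 1.3 on all 4 arrays, and day 3 repeat 1 is the highest array for 16 of the 38 genes, or 42.1%, the same share as over all genes (42.1%).

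Among the SR proteins 4 genes were measured, and all 4 means were above 0, with a class median of 0.39. SRSF10, an SR protein that can act as a splicing repressor when it is dephosphorylated, measured 1.38 at day 2, 1.68 and 1.93 on the arrays of day 3 and 1.94 at day 5. All 4 arrays lay above 1, with the smallest spread of the 38 genes, at 1.73 ± 0.27 (SD, n = 4), or 3.32-fold. Its 95% interval ran from 1.09 to 2.37, and it stood at rank 21 of 4604 genes by p, with a limma adjusted p of 0.102, which misses the threshold. Over the alternative settings its value lay between 1.54 and 1.85 and its adjusted p between 0.0249 and 0.257. It passed after quantile normalization, with array weights and with the 2 arrays of day 3 alone, where 2.04%, 5.69% and 4.26% of all genes passed. With 2 arrays the p-value leans largely on a variance shared over all genes. SRSF10 rests on 1 feature.

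SRSF7, which also serves mRNA export, measured 0.34 at day 2, 1.46 and 0.26 (repeats 1 and 2) at day 3 and 0.02 at day 5. The values near 0 on the other arrays leave a mean of 0.52 ± 0.64 (SD, n = 4; limma adjusted p = 0.355), and 0.21 without day 3 repeat 1. SRSF3, the smallest SR protein, had its lowest value on that array, with -0.56 on day 3 repeat 1 and 0.44, 0.46 and 0.11 at day 2, day 3 repeat 2 and day 5. Its mean of 0.11 ± 0.48 (SD, n = 4) had a 95% interval from -0.61 to 0.84. SRSF4 ranged from -0.84 on day 3 repeat 1 to 1.42 on day 3 repeat 2, so the repeats of 1 day spanned its whole range.

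For the core of the spliceosome few genes were on the array. SF3B4, a subunit of the SF3b complex that holds the U2 snRNP at the branch point, measured 1.40 at day 2, 0.64 and 0.89 at day 3 and 0.09 at day 5. All 4 values were above 0, with a mean of 0.75 ± 0.54 (SD, n = 4; limma adjusted p = 0.212). SNRPA, a protein of the U1 snRNP, which recognises the 5′ splice site, measured -0.45 at day 2, -0.49 and -0.94 at day 3 and -2.25 at day 5. It was below 0 on every array, lowest at day 5, with a mean of -1.03 ± 0.84 (SD, n = 4; limma adjusted p = 0.186), or 2.05-fold lower. SNRPN, an imprinted gene for a Sm core protein, had 4 features and a mean of -0.22 ± 0.64 (SD, n = 4), above 0 on 1 of the 4 arrays.

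The 3 PRPF genes serve the U4/U6.U5 tri-snRNP or are related to its factors. Their means lay between 0.09 and 0.28, and adjusted p between 0.623 and 0.87. PRPF4 was at 1.39 on day 3 repeat 1 and between -0.27 and 0.06 on the other arrays. PRPF38B was above 0 on day 3 repeat 2 and day 5 and below 0 on the other two arrays, with a mean of 0.09.

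In the HNRNP class, the largest with 14 genes, 6 means were above 0 and 8 below, with a median of -0.06. HNRNPK, which binds C-rich RNA through KH domains, had the highest mean and measured 1.09 at day 2, 2.08 and 0.64 at day 3 and 1.36 at day 5. All 4 arrays were at 0.64 or above, with a mean of 1.29 ± 0.60 (SD, n = 4), or 2.45-fold, a 95% interval from 0.50 to 2.08 and a limma adjusted p of 0.133. Without day 3 repeat 1 it was 1.03 ± 0.36 (SD, n = 3). HNRNPH1, which binds runs of G, measured 0.69 at day 2, 2.29 and 0.35 at day 3 and 0.72 at day 5. Here too every array was above 0, but day 3 repeat 1 was far above the others, and the mean of 1.01 ± 0.87 (SD, n = 4; limma adjusted p = 0.193) was 0.59 without it.

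HNRNPM followed this pattern, with 1.94 on day 3 repeat 1 and between -0.16 and 0.38 elsewhere. HNRNPL, which binds CA repeats, was at 1.12 on that array and between -0.38 and 0.15 on the others. HNRNPLL, the paralog of HNRNPL that controls CD45 exons in lymphocytes, measured 0.58 at day 2, 0.11 and -0.41 at day 3 and -0.40 at day 5. Its mean was -0.03 ± 0.47 (SD, n = 4) on 1 feature, and its unadjusted 95% interval from -0.75 to 0.69 lay between -1 and 1. HNRNPUL2 stayed within -0.57 to 0.91 by its interval.

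HNRNPH3, a relative of HNRNPH1, lay at the other end of the class. It measured -0.11 at day 2, -1.02 and -0.11 at day 3 and -3.98 at day 5. The day 5 array set the mean of -1.30 ± 1.84 (SD, n = 4; limma adjusted p = 0.281). HNRNPH1 and HNRNPH3 thus had means of opposite sign, a difference that was not tested. HNRNPD, the AU-rich element binding protein AUF1, was below 0 on every array, from -0.87 to -0.02. HNRNPU, a nuclear scaffold protein, measured -0.02 at day 2, 0.18 and 0.00 at day 3 and 1.73 at day 5, so its mean of 0.47 rests on day 5. HNRNPC, which binds tracts of U, ranged from -1.35 at day 5 to 1.13 on day 3 repeat 1.

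The exon repressor HNRNPA1 measured -0.76 at day 2, 0.13 and 0.39 at day 3 and -0.20 at day 5, with a mean of -0.11 ± 0.50 (SD, n = 4). HNRNPA1L2 measured -0.87 at day 2, -1.98 and 0.15 at day 3 and -0.61 at day 5. Its mean of -0.83 ± 0.88 (SD, n = 4; limma adjusted p = 0.249) was -0.44 without day 3 repeat 1. HNRNPA1L2 and HNRNPA1P70, a pseudogene at -0.09 ± 1.33 (SD, n = 4), are copies near-identical in sequence to HNRNPA1. Spotted cDNA may not separate these transcripts, so the 3 values are uncertain. HNRNPA2B1 had a mean of -0.27 ± 1.08 (SD, n = 4), with values on both sides of 0.

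**Figure D3:**
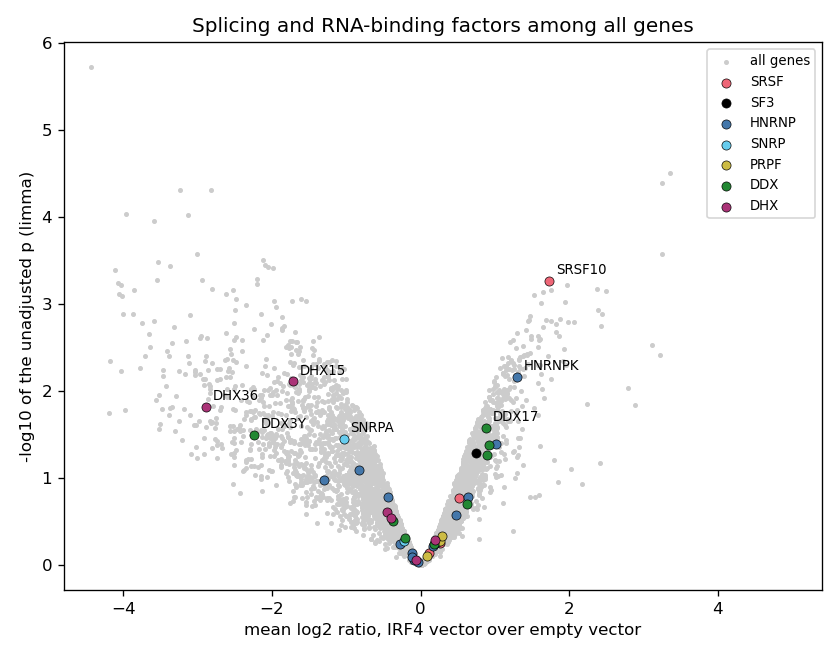
Mean log2 ratio (IRF4 vector over empty vector, horizontal) against -log10 of the unadjusted limma p (vertical) for all genes in grey and the 38 splicing and RNA-binding genes by class. SRSF10 and HNRNPK stand highest on the right and DHX15 on the left, and none of the 38 passed the adjusted threshold.

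The 8 DDX genes had a median of 0.40, and of 0.17 without day 3 repeat 1. DDX5 and DDX17 are close paralogs that act in splicing and as transcriptional co-regulators. DDX5 measured 0.49 at day 2, 2.10 and 0.51 at day 3 and 0.46 at day 5. The other 3 arrays lay close together, and the mean of 0.89 ± 0.80 (SD, n = 4; limma adjusted p = 0.214) was 0.49 ± 0.03 (SD, n = 3) without day 3 repeat 1. DDX17 measured 1.36 at day 2, 1.25 and 0.52 at day 3 and 0.37 at day 5, for a mean of 0.88 ± 0.50 (SD, n = 4; limma adjusted p = 0.173). DDX17 was thus above 0 on all arrays without resting on that array.

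DDX1, which takes part in tRNA ligation, measured 0.62 at day 2, 2.02 and 0.55 at day 3 and 0.48 at day 5. It resembled DDX5 array by array, with a mean of 0.92 ± 0.74 (SD, n = 4; limma adjusted p = 0.193) and 0.55 ± 0.07 (SD, n = 3) without day 3 repeat 1. DDX21, a nucleolar helicase of ribosomal RNA synthesis, was at 2.16 on day 3 repeat 1 and between -0.05 and 0.35 on the other arrays. DDX6, a helicase of mRNA decapping, had a mean of 0.18 and was highest at day 5, at 0.89.

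DDX3Y, the Y-linked copy of the translation helicase gene DDX3X, measured -4.93 at day 2, -1.04 and 0.04 at day 3 and -3.02 at day 5. Its mean of -2.24 ± 2.20 (SD, n = 4; limma adjusted p = 0.183) covers 1 array near 0 and 3 below -1, on 1 feature. DDX31 and the pseudogene DDX12P lay within 0.4 of 0 by their means of -0.37 and -0.21.

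Among the 6 DHX genes 5 had means below 0, with a class median of -0.42, and no test was made between this class and the DDX genes. DHX15, the helicase that takes the spliceosome apart after splicing, measured -2.40 at day 2, -0.22 and -2.46 at day 3 and -1.78 at day 5. The other 3 arrays lay close together, and day 3 repeat 1 was the one near 0. Its mean was -1.72 ± 1.04 (SD, n = 4), or 3.28-fold lower, with a 95% interval from -2.79 to -0.64 and a limma adjusted p of 0.134. Without day 3 repeat 1 it was -2.22 ± 0.38 (SD, n = 3; limma adjusted p = 0.149). With array weights it passed (limma adjusted p = 0.0292), as did 5.69% of all genes. Over the alternative settings its value lay between -2.43 and -0.999 and its limma adjusted p between 0.0292 and 0.717.

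DHX36, which unwinds G-quadruplexes, measured -5.20 at day 2, -1.57 and -0.25 at day 3 and -4.54 at day 5. Its arrays formed a very low pair, days 2 and 5, and a higher pair, both of day 3. The mean of -2.89 ± 2.36 (SD, n = 4; limma adjusted p = 0.155) was the lowest of the 38 genes. DDX3Y had the same order of arrays, with the same low pair. DHX9, a nuclear RNA helicase, measured -0.04 at day 2, -0.57 and 0.30 at day 3 and -1.29 at day 5. Its mean of -0.40 ± 0.70 (SD, n = 4) was -0.10 without the day 5 array. The spliceosomal helicases DHX8 and DHX16 had means of -0.45 and -0.07, and DHX57 had the highest mean of the class, at 0.20 ± 0.42 (SD, n = 4). All 6 DHX genes rest on 1 feature each.

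Of the 38 genes, 10 had more than 1 feature, 28 features in all, which shows how far separate spots of a gene gave the same answer. In 6 of these 10 genes all feature means had 1 sign, and in 46% of the 2674 genes with more than 1 feature. The 6 features of SRSF7 had means from 0.21 to 0.68, all highest on day 3 repeat 1. The pair of DDX1 features gave 0.91 and 0.92, the HNRNPK features 1.41 and 1.17, the HNRNPM features 0.72 and 0.54 and the DDX21 features 0.58 and 0.69. In these 5 genes every feature was highest on day 3 repeat 1. The lead was small for HNRNPK feature 1 (1.85, against 1.56 at day 5) and SRSF7 feature 6 (0.41, against 0.21 at day 2). The spots share 1 array, so they are not separate evidence on its height.

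Other genes were not measured alike by their features. PRPF31, a tri-snRNP protein, had feature means of 1.68, -0.26 and -0.62, and its first feature alone reached 4.51 at day 5. The SNRPN features ran from -1.23 to 0.75, with one at -4.75 at day 2. The first HNRNPA2B1 feature was at -3.30 at day 5 against -0.12 for the second. For PRPF31, SNRPN and HNRNPA2B1 the gene value is therefore a mean over features that disagree in sign, as it is for HNRNPUL2 (-0.16 to 0.57).

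**Figure D4:**
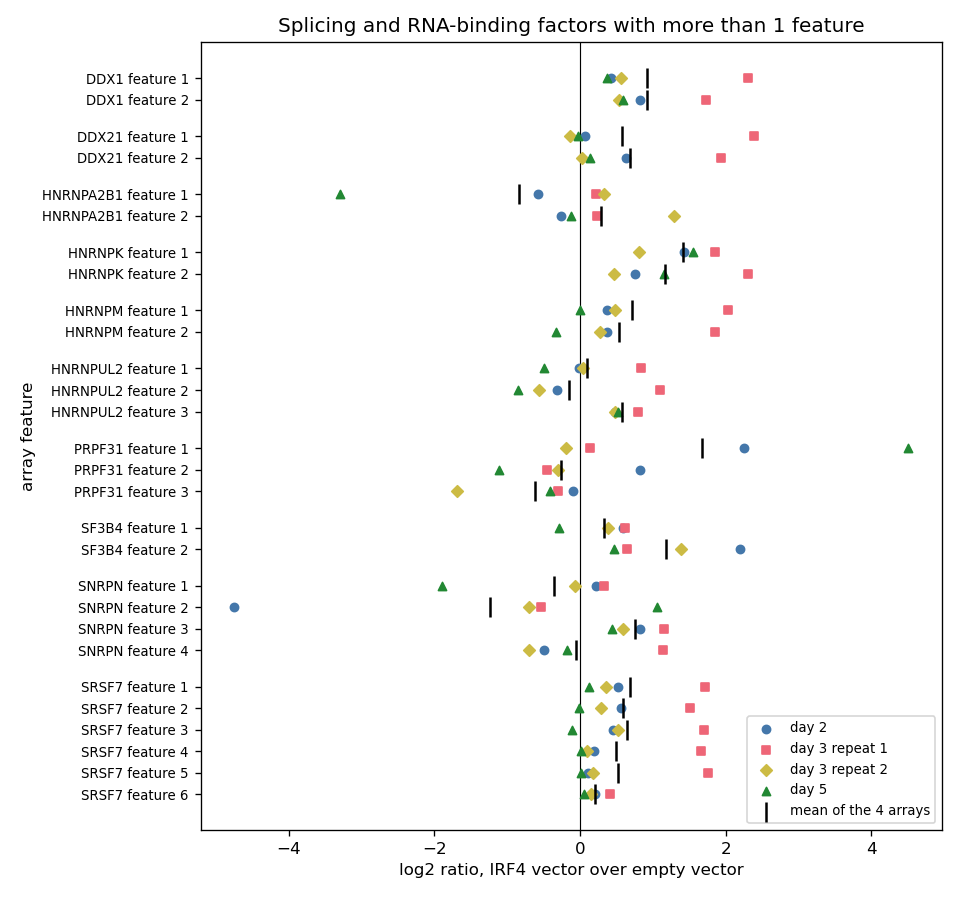
Log2 ratio (IRF4 vector over empty vector, horizontal) of each feature of the 10 splicing and RNA-binding genes with more than 1 feature, per array, with the mean as a black bar. The 6 SRSF7 features have day 3 repeat 1 on the right, for feature 6 at 0.41 only, while PRPF31 and SNRPN features scatter on both sides of 0.

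The change of the ratio with day was fitted over days 2, 3, 3 and 5. None of the 38 genes passed, and 0 of 4604 genes did, which is 0% (limma slope, adjusted p under 0.05). At an unadjusted p under 0.05 there were 2 of 38 genes, 5.26%, and 12.3% of all genes. HNRNPH3 had the smallest p, with a slope of -1.38 ± 0.32 log2 units per day (SE; limma adjusted p = 0.167), which rests on its low value at day 5. HNRNPA1P70 had a slope of 0.87 ± 0.35 (SE; limma adjusted p = 0.396), SNRPA of -0.64 ± 0.26 (SE; limma adjusted p = 0.413) and HNRNPU of 0.63 ± 0.27 (SE; limma adjusted p = 0.421). Day 2 and day 5 are held by 1 array each, so the day and the array cannot be told apart. With 1 array left out, the p-value of a slope leans largely on a variance shared over all genes. Without day 5 the slope only sets the day 2 array against those of day 3. Without the day 5 array DDX3Y (4.44 per day) and DHX36 (4.29) passed, and without the day 2 array DHX36 (-1.81) and HNRNPH3 (-1.71), where 2.11% and 6.02% of all genes passed; DHX36 thus had slopes of opposite sign.

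The arrays carry numbers of the authors' database that fall into 2 ranges, day 3 repeat 1 and day 5 in the lower and day 3 repeat 2 and day 2 in the upper. The median of the 38 genes was 0.17 in the lower range and 0.01 in the upper. SRSF10 was at 1.81 in the lower and 1.65 in the upper range, HNRNPK at 1.72 and 0.87, and DDX17 at 0.81 and 0.94. DHX15 was at -0.999 in the lower and -2.43 in the upper range, and DHX36 at -3.05 and -2.73. These 5 genes had 1 sign on all 4 arrays, so their means could not turn sign between the ranges. Among genes with values on both sides of 0, SRSF3 was at -0.23 in the lower and 0.45 in the upper range, and DHX9 at -0.93 and 0.13.

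Beyond the named families, 46 of 93 listed genes of splicing and RNA binding were measured. None of them passed the test (limma), and at an unadjusted p under 0.05 there were 1 higher and 9 lower, against 7.91% of all genes higher and 16.0% lower. Their median was -0.03, and 8 were above 0 and 9 below 0 on all 4 arrays, against 17.0% and 21.0% of all genes. TRA2B, a splicing activator with RS domains, had the smallest p of the list and measured -1.40 at day 2, -3.14 and -2.98 at day 3 and -4.89 at day 5. It was far below 0 on every array, with a mean of -3.10 ± 1.43 (SD, n = 4; limma adjusted p = 0.119). PTBP2, a paralog of the polypyrimidine tract repressor PTBP1, was at -2.40 ± 1.31 (SD, n = 4; limma adjusted p = 0.13), and PTBP1 at -0.32 ± 0.89 (SD, n = 4). U2AF1, which reads the 3′ splice site, was above 0 on all arrays, at 0.57 ± 0.28 (SD, n = 4; limma adjusted p = 0.24). TRA2B, PTBP2, PTBP1 and U2AF1 were picked from the list after their values were seen.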

How the data were processed

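Trizol was used to prepare total RNA, and dyes were added in reverse transcription, per the labels' protocols. The values are the ratios deposited by the authors for 15246 features without missing values, taken as log2 although the base is not stated. How they were scanned and normalized is not given in the sources used here. Single-channel signals were not used here, so signal over background could not be checked, and the number of arrays limits the precision. The deposited array medians lay between -0.26 and -0.08, and each array was centred on its median. Symbols came from the platform annotation: 10169 features had 1 symbol, 4 several and 5073 none. Gene values are means over features. Limma 3.58.1 in R 4.3.3 tested the mean over the 4 arrays against 0 and, separately, the slope with day, 2-sided, with Benjamini-Hochberg adjustment over 4604 genes. All arrays had the same dye orientation, so dye bias and ratio cannot be told apart. The spread of the ratios holds that of both channels, and the control's own spread was not estimated separately. The fits were tested on simulated data. Genes named are those passing the test, class extremes, the 12 smallest p and a list of familiar members; the remaining members are described too. The gene families and lists were chosen with earlier results of these data known. Alternatives changed the centring, scaling, feature summary, weights, variance prior and arrays used. No human sequences were used here.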

Additional observations from a re-analysis of the deposited data

Results flagged for a closer look

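In 3 of 37 genes tested (DDX3Y was left out), 1 array stood far from the other 3, with a gap beyond Dixon's 95% critical value. Chance gives about 1 in 20, and 10.4% of all genes had such an array. DDX1 was at 2.02 on day 3 repeat 1, against 0.48 to 0.62 on the other arrays. DDX5 was at 2.10 on the same array, against 0.46 to 0.51. HNRNPU was at 1.73 at day 5, against -0.02 to 0.18. Day 3 repeat 1 was the array set apart in 5.84% of all genes and day 5 in 2.76%. Class medians were tested in each class but SF3, which had 1 gene, and 1 was flagged. The median of the 4 SRSF genes was 0.94 on day 3 repeat 2, against 0.37 to 0.45 on the other arrays. It lay between SRSF3 at 0.46 and SRSF4 at 1.42 on that array, each on 1 feature.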

How the results depend on the processing

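No paired analysis was possible between arrays because the 4 human arrays form 1 group. Each array holds both arms, so its ratio is already a paired comparison of IRF4 vector and empty vector within the array. The count of 0 of the 38 genes was 1 after quantile normalization (SRSF10), 2 with array weights (SRSF10 and DHX15), 2 in the lower database range alone (DHX36 and HNRNPH3) and 1 with day 3 alone (SRSF10), and 0 in the other alternatives, without any 1 array too. The fits on 1 range or on day 3 alone held 2 arrays each, so their p-values lean largely on a variance shared over all genes. In the lower range DHX36 was at -1.57 on day 3 repeat 1 and -4.54 at day 5, and HNRNPH3 at -1.02 and -3.98. The annotation held 0 older symbols of these families. Over all genes the count of 5 was 1 without centring, 1 centred over features with a symbol, 94 after quantile normalization, 1 with the median of features, 262 with array weights, 0 with a robust prior, 0 with the range as a factor, 342 and 0 in the lower and upper range alone, 196 with day 3 alone, and 0 to 1 without 1 array. The slope gave 0 to 2 of the 38 genes without 1 array: DDX3Y (4.44) and DHX36 (4.29) without day 5, DHX36 (-1.81) and HNRNPH3 (-1.71) without day 2. The median of the 38 genes was -0.094 without centring, 0.58 over the 10 genes with 2 or more features, and -0.0816 to 0.157 without 1 array. Without centring the median of all genes was -0.33 in place of -0.14. Among the 26 genes named by rule, signs turned in these alternatives for genes with an adjusted p of 0.449 or more: without centring PRPF38B (-0.11) and SRSF3 (-0.08); with the median of features SNRPN (0.086); with array weights HNRNPA1 (0.006) and HNRNPA2B1 (0.18); in the lower range DHX57 (-0.05), SNRPN (0.19) and SRSF3 (-0.23); in the upper range DHX9 (0.13), HNRNPA2B1 (0.19), HNRNPLL (0.081), HNRNPU (-0.009), PRPF38B (-0.001) and PRPF4 (-0.16); with day 3 alone HNRNPA1 (0.26), HNRNPA2B1 (0.52), HNRNPC (0.37), SNRPN (0.15) and SRSF3 (-0.049). Without 1 array, the values of the genes that turned sign were HNRNPA1 -0.279 to 0.105, HNRNPA2B1 -0.633 to 0.205, HNRNPC -0.527 to 0.297, HNRNPLL -0.233 to 0.098, PRPF38B -0.105 to 0.259, PRPF4 -0.084 to 0.470, SNRPN -0.471 to 0.053 and SRSF3 -0.005 to 0.337. The causes were not tested.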
